A study of Sus scrofa with 70 samples.

Results

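Of the 110996 full-length isoforms that long-read sequencing gave in 5 reproductive glands of the boar, 4119 were classed as intergenic, and for 2639 of these no coding sequence was predicted. These 2639 isoforms, called members below, were 2.38% of all isoforms and 64.1% of the intergenic ones. They were chosen by 2 columns of the deposited isoform table, the SQANTI3 category and the coding call, and not by any expression value. They came from 1543 loci as the authors' collapsing step defined them. Of the members, 2520 had a value in the short-read expression table and 119 had none.

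The glands were the testis, the epididymis and the vesicular, prostate and bulbourethral glands of 12-month-old boars. The boars were of 2 breeds: the inbred Banna mini-pig line (BMI) and the non-inbred Diannan small-ear pig (DSE), from which that line was bred. Each gland of each breed gave 1 PacBio Iso-seq library and 3 Illumina RNA-seq libraries, 10 and 30 in all, with no treatment in any group. No label said that replicates came from separate boars, so a p-value below measures only the spread between these libraries, and the Iso-seq values have no replicates.

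Intergenic RNA without a coding sequence is the class from which long intergenic noncoding RNAs are drawn. Such RNAs are transcribed by RNA polymerase II, are often spliced and polyadenylated, and are usually less abundant and more restricted to single tissues than messenger RNAs. The testis is known for transcribing an unusually large part of the genome during the formation of sperm, and many noncoding genes share a promoter with a protein-coding gene read in the opposite direction. In full-length cDNA sequencing, 2 well-known artefacts can also yield such isoforms: priming of oligo-dT on stretches of A inside a transcript, and template switching of the reverse transcriptase between short direct repeats.

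Some libraries stood apart from their gland and touch the values below. The second BMI prostate library held 227665 TPM (transcript abundance scaled for length and for the reads of the library) on 3 genes of vesicular gland proteins (PSP-I, PSP-II and AWN), where the 6 vesicular gland libraries held 294622 to 370524 TPM and the other 5 prostate libraries 2.14 to 14.5 TPM. The second BMI epididymis library held 1009 TPM on 7 testis markers, against 1.33 to 250 TPM in the other 5 epididymis libraries and 67150 to 131028 TPM in testis. Of the epididymis markers, the first DSE epididymis library held 1788 TPM in all, within the 1647 to 23262 TPM of the other 5, with 1399 TPM of ADAM7 against 468 to 2780 TPM and 21.3 TPM of CRISP1 against 1100 to 2759 TPM. By the quality control of the study, that library had the lowest transcript integrity of all RNA-seq libraries. The second DSE testis library was low for the spermatid gene PRM1, with 18217 TPM against 46809 to 71826 TPM in the other 5, and high for INSL3 of the Leydig cells, with 42359 TPM against 11448 to 23381 TPM. INSL3 also separated the breeds in testis, at 11448 to 12257 TPM in BMI and 16566 to 42359 TPM in DSE. The testis marker DDX4 was at 201 to 243 TPM in BMI and 67.7 to 196 TPM in DSE, while PRM1, PRM2, TNP1, TNP2 and SYCP3 overlapped between the breeds. Full-length reads assigned to the isoforms of the deposited table ranged per Iso-seq library from 231413 (DSE epididymis) to 458697 (BMI epididymis). Markers of other tissues varied as well. In the epididymis libraries, 4 smooth muscle markers summed to 816 to 13343 TPM, and the globin gene HBB was at 99.3 to 2644 TPM. Skeletal muscle markers summed to 353 TPM in the first BMI and 1156 TPM in the third DSE bulbourethral library, against 0 to 20.3 TPM in the others of that gland. In such bulk samples fewer cells of a type and less RNA per cell cannot be told apart.

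The 3′ ends of the members fell into 2 kinds, and the sequences of 8 members named for their reads or levels show both. Each line gives the last 60 bases of the isoform and the 20 genome bases after it, 5′ to 3′ on the transcribed strand, read from the RefSeq copy of Sscrofa11.1. Capitals mark a polyadenylation motif inside the isoform and, in the first 4, the A-rich genome sequence that follows the last transcribed base.
PB.15011.93, chr5:86235955-86236034, minus strand: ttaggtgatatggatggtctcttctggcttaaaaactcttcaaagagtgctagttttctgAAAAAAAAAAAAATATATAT
PB.6346.3, chr14:66299174-66299253, plus strand: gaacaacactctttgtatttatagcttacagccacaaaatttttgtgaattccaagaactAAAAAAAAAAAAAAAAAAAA
PB.8252.21, chr16:27541693-27541772, minus strand: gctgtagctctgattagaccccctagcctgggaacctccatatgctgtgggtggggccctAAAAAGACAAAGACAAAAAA
PB.13158.26, chr4:45796458-45796537, plus strand: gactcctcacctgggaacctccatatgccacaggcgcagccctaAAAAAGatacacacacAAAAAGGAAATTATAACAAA
PB.3567.105, chr12:19220716-19220795, minus strand: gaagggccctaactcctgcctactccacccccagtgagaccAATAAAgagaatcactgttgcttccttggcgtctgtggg
PB.8863.1, chr17:35167866-35167945, minus strand: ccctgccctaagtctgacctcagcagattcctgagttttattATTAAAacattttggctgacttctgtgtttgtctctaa
PB.10464.1, chr2:60982813-60982892, minus strand: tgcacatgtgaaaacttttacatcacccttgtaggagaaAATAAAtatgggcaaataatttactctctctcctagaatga
PB.12621.163, chr3:112005055-112005134, minus strand: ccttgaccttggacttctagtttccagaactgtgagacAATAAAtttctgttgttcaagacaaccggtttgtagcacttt

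The genome continued in A after the 3′ end of most members. At least 60% of the 20 following bases were A in 1689 members, or 64.0% (Wilson 95% interval 62.2 to 65.8%), against 47.8% of intergenic isoforms with a coding sequence, 44.8% of antisense isoforms without one and 29.8% of all isoforms. These intervals cover counting error only, and isoforms of 1 locus are not independent. The share was lower in testis than elsewhere: it was 32.7% and 31.4% of the members found in the BMI and DSE testis libraries, and 66.1 to 77.9% in the other 8 libraries. All isoforms showed a smaller gap of the same direction, with 18.9 and 20.01% in testis and 27.9 to 33.5% in the other glands. SQANTI3 found a polyadenylation motif near the 3′ end of 1283 members (48.6%), against 76.5% of all isoforms. The canonical motif AATAAA was 62.8% of the motifs of members whose flank was not A-rich, as in PB.3567.105 and PB.10464.1, and 12.8% of the motifs of A-rich members, in which the A-rich letters AAGAAA were the most frequent motif at 27.3%.

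**Figure D1:**
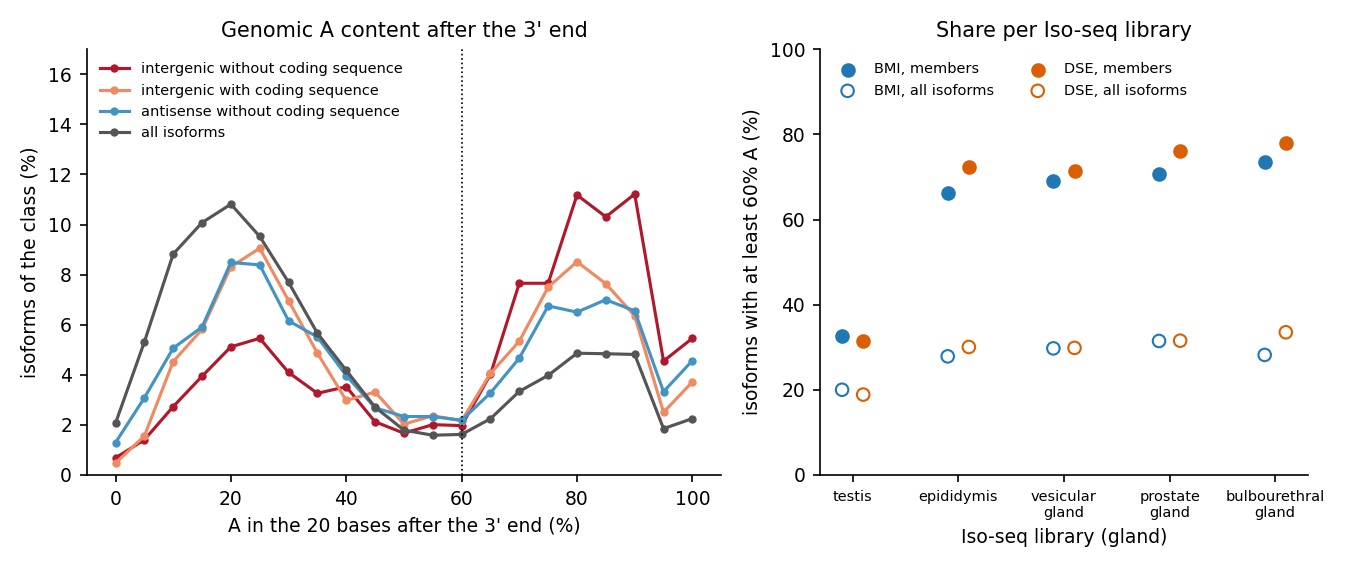
The left panel plots the share of isoforms (%) against the percentage of A in the 20 genome bases after the 3′ end for 4 classes, with the dotted line at 60%. The right panel plots the share at or above that line per Iso-seq library, filled circles for members and open circles for all isoforms; the testis libraries lie at 31.4 and 32.7% for members and all others at 66.1% or more.

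Soft-masked sequence, the lower case by which the reference marks repeats of any class, was frequent at these ends. At least 50% of the last 60 bases were soft-masked in 69.4% of A-rich members and 38.9% of the others, against 33.0% of Ensembl transcripts in the same annotation. PB.8252.21 and PB.13158.26, 2 of the most-read members, shared the run cctgggaacctccatatgc at their 3′ ends, at loci on chromosomes 16 and 4. On the transcribed strand, this run of 19 bases lay in the last 100 bases of 180 members. It was present in 10.2% of A-rich members, 1.08% of the others and 2.15% of Ensembl transcripts.

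Splice junctions were less often canonical than in other isoforms. All junctions were canonical in 1380 members (52.3%), against 70.5% of intergenic isoforms with a coding sequence and 86.3% of all isoforms. Of 5559 junctions, 46.9% read GT-AG. Template switching was predicted by SQANTI3 in 630 members (23.9%), against 6.38% of all isoforms. Among members with a noncanonical junction, 81.3% had an A-rich flank and 31.1% had a direct repeat of at least 8 bases at an intron's ends, against 48.6% and 6.62% among canonical members. Members with canonical junctions, no predicted switching, a polyadenylation motif and no A-rich flank numbered 527 (19.97%), against 55.8% of all isoforms. Most members were short models, since 1626 (61.6%) had 2 exons, and the median length was 2375 bases.

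The name intergenic covered several positions relative to annotated genes. By the Ensembl annotation in the deposited assembly, 1098 members (41.6%) overlapped no gene and 837 (31.7%) lay inside an intron of a gene on the same strand. A further 571 (21.6%) crossed all or part of the span of a gene, without lying inside it and without touching its exons. An exon was overlapped on the opposite strand by 103 members and on the same strand by 28, among them PB.8863.1. Of the intronic members, 87.3% had an A-rich flank, against 43.1% of members that overlapped no gene. RefSeq, which the category did not use, had a same-strand exon at 654 of the 2591 members on assembled chromosomes (25.2%). That exon was of a lncRNA gene for 366 members and of a protein-coding gene for 267, and 70 members had an intron chain identical to a RefSeq transcript. A further 48 members lay on unplaced scaffolds and had no sequence read for them.

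The starts of some members lay beside a gene. The 5′ end of 266 members (10.1%) lay within 5 kb of a gene read in the opposite direction away from it, here called divergent. The sequences show 2 such starts close to a gene, which are rich in CpG, and that of the testis member PB.8977.1, with no CpG in the printed bases and 4610 bases from its divergent neighbour. Each has 40 bases before the start in lower case and the first 40 transcribed bases in capitals, 5′ to 3′ on the transcribed strand of Sscrofa11.1.
PB.6346.3, chr14:66291317-66291396, plus strand, 58 bases from EGR2: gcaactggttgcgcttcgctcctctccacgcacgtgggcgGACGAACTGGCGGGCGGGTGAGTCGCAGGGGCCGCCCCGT
PB.10464.1, chr2:60983968-60984047, minus strand, 249 bases from MED26: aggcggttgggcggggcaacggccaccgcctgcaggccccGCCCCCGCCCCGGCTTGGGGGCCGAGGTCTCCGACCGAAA
PB.8977.1, chr17:41484124-41484203, plus strand: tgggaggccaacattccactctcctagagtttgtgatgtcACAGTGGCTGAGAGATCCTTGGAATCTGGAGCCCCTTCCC

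Over the window from 250 bases before to 50 bases after the start, an observed to expected CpG ratio of at least 0.6 was found at 78.6% of divergent members, 16.1% of the others and 44.5% of Ensembl transcripts. Members inside introns reached it in 5.88% of cases. The letters TATAAA stood between positions -40 and -11 on the transcribed strand at 1.93% of members and 1.37% of Ensembl transcripts. An absent match says only that these letters are not in the window.

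Most members were read rarely. They held 9738 of 3468110 full-length reads (0.281%), and 1790 members (67.8%) had 2 reads over the 10 libraries, against 38.6% of all isoforms. Members seen in a single library numbered 1246 (47.2%), against 19.9% of all isoforms, and 2 members were seen in all 10. Reads fell only in testis for 479 members, of which 206 had reads in both breeds. The corresponding numbers were 476 and 67 in the epididymis, 236 and 41 in the bulbourethral gland, 233 and 27 in the prostate gland, and 185 and 22 in the vesicular gland.

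The library with the most members had the fewest full-length reads assigned to isoforms. DSE epididymis held 684 members on 0.631% of its reads (0.5999 to 0.664%), and BMI bulbourethral gland held 299 members on 0.128% (0.117 to 0.139%). The shares of the other 8 libraries were between 0.221% and 0.368%. Counting only members with at least 5 reads in all, of which there were 364, the shares of these 2 libraries were 0.227% and 0.0579%. The share was higher in DSE than in BMI in the epididymis and bulbourethral gland, lower in the testis and prostate gland, and 0.253% against 0.260% in the vesicular gland, where the intervals overlapped. There was 1 library per group, and these differences were not tested.

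The 5 most-read members were of several kinds. PB.15011.93 (chr5:86235975-86239302, minus strand) had 171 reads, 50 of them in BMI and 36 in DSE prostate, and overlapped an exon of the RefSeq lncRNA LOC100514051. Its TPM was at most 0.191 in all 30 RNA-seq libraries, while the other isoforms of its locus summed to a mean of 383 TPM. PB.8252.21 (chr16:27541713-27547871, minus strand), on a RefSeq exon of SELENOP, the selenium carrier of plasma, had 87 reads and at most 0.912 TPM. Salmon divides reads among overlapping isoforms, so such a TPM depends on the rest of the locus. PB.13158.26 (chr4:45793439-45796517, plus strand), 101 bases from the deubiquitinase gene OTUD6B in divergent orientation, had 86 reads and was read in all 10 Iso-seq libraries. Its TPM was 1.895 to 8.37 in every RNA-seq library, with a median of 7.25 in the epididymis and 2.66 in the vesicular gland, and the values of these 2 glands did not overlap.

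PB.3567.105 (chr12:19220736-19223671, minus strand) lay 2177 bases from PPY, which encodes pancreatic polypeptide, and on an exon of the RefSeq protein-coding gene LOC110255899. It had 54 reads in BMI and 73 in DSE epididymis and none elsewhere. The other isoforms of its locus summed to a mean of 1882 TPM, so here too the TPM depends on how reads were divided. The epididymal TPM of PB.3567.105 was 0.931, 413 and 2.57 in BMI and 6494, 0.415 and 3.83 in DSE. A single library of each breed was high, and 2 of the other 4 were within the values of up to 1.84 TPM outside the epididymis. These 2 libraries were also the highest of the 6 for the epididymis markers LCN6 (6126 and 290 TPM, against 0.198 to 62.2) and RNASE10 (10294 and 20.1 TPM, against 3.09 to 15.4), but not both for ADAM7, ADAM28 or CRISP1, and their part in these values was not tested. PB.6346.3 (chr14:66291357-66299233, plus strand), beside the transcription factor gene EGR2, had 56 reads in BMI and 35 in DSE epididymis. Its intron chain was that of the RefSeq lncRNA LOC106506022.

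In short reads, most members were near the floor. The median over members of the mean TPM was 0.0448, against 0.278 for all 133722 transcripts of the table and 0.205 for intergenic isoforms with a coding sequence. At least 1 TPM in at least 3 libraries, the filter of the fits below, was reached by 693 of the 2520 members in the table (27.5%), against 48.4% of all transcripts and 29.9% of transcripts of annotated lncRNA genes. The other 1827 members were not tested, and 1607 members never reached 1 TPM. Levels above 10 TPM on average were found for 64 members and above 100 TPM for 8, while 25 members had at least 1 TPM in all 30 libraries.

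Passing the filter went with the features of the isoform ends. Of all 2639 members, in the table or not, 26.3% passed. It was passed by 53.4% of the members whose flank was not A-rich and by 11.0% of A-rich members. Canonical junctions gave 40.8% and a noncanonical junction 10.3%. Members overlapping no Ensembl gene passed in 48.7% of cases and intronic members in 5.14%. With more reads the level was higher: the median mean TPM was 0.0267 for members with 2 reads and 2.77 for the 47 members with at least 20 reads, of which 7 never reached 1 TPM.

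The summed TPM of the members had its highest median in testis, while the mean TPM of a member was highest in the epididymis for 764 and in testis for 746 of 2520, and the Iso-seq shares of testis, 0.283% in BMI and 0.240% in DSE, were within those of the other glands. The sum had a lowest, median and highest value of 4537, 11726 and 13000 in testis and 2077, 2878 and 23060 in epididymis. In the vesicular gland these values were 977, 2303 and 2413, in the prostate gland 998, 1033 and 1692, and in the bulbourethral gland 1155, 1345 and 1538. The testis lay above all other libraries except the first DSE epididymis library, whose sum was 3996 without the 3 members of the highest mean TPM. The lowest testis sum was that of the second DSE library, in which PRM1 was low. The highest prostate sum was that of the second BMI library, which carried the vesicular gland genes. As a description, members at 1 TPM or more in all 6 libraries of a gland numbered 287 for the testis, 85 for the epididymis, 62 for the bulbourethral, 54 for the vesicular and 49 for the prostate gland.

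**Figure D2:**
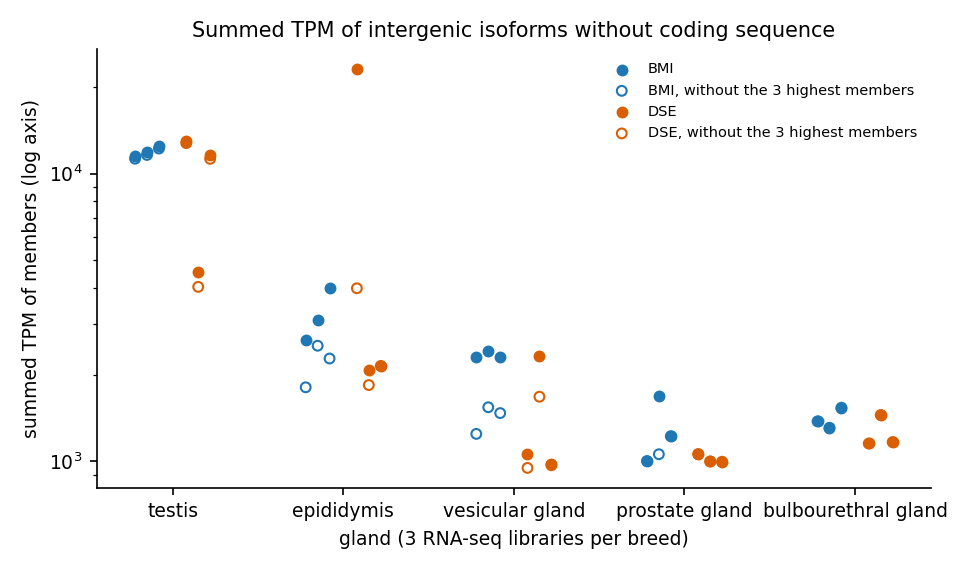
Summed TPM of members (log axis) in each of the 30 RNA-seq libraries by gland, BMI in blue and DSE in orange, with open circles for the sum without the 3 members of highest mean TPM. The testis libraries lie between 4537 and 13000, and the first DSE epididymis library at 23060, or 3996 without those 3 members.

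Each gland was compared with the mean of the other 4 by limma on log2(TPM + 1), over 64661 transcripts. Transcripts were called where the log2 difference was at least 1 and the adjusted p (Benjamini-Hochberg) was below 0.05. Differences are on the log2(TPM + 1) scale throughout, which understates the change of low transcripts. The fit used 1 estimate of spread per transcript for all groups of breed and gland. For a member near 0 in most libraries, the SE and p can therefore understate the spread within the gland where it was high. In testis, 384 of the 693 members tested were higher (55.4%, against 28.4% of all transcripts) and 38 were lower (against 9.54%). The filter could be met through testis alone, and 311 of the 384 stayed below 1 TPM in each of the other 24 libraries, so that most of them entered the fit only through the gland where they were high. Of all transcripts in the table, tested or not, 15.2% of members and 13.7% of all transcripts were called higher in testis. With a pseudocount of 0.1 in place of 1, 138 members were lower in testis (19.9%, against 19.9% of all transcripts). The median log2 difference with 0.1 was 3.33 over the tested members and 0.20 over all transcripts. With the pseudocount of 1 it was 1.23 over the members and 0.06 over all transcripts. The share of those tested that was called higher in testis was 54.4% of intergenic isoforms with a coding sequence, 49.1% of antisense isoforms without one and 15.3% of transcripts of annotated lncRNA genes. Over the whole table these shares were 23.6%, 17.9% and 4.59%, so that members were above the first 2 of these classes among those tested and below both over the table. All 6 testis libraries lay above the other 24 for 329 members, a pattern that 16.5% of all transcripts showed.

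The 384 members higher in testis were described beside the 693 members tested, of which they are a part. Their flanks were A-rich in 16.4% of cases, against 26.8%. Their junctions were canonical in 89.6%, against 81.2%, and 98 (25.5%) were divergent from a gene, against 22.2%. Their median log2 difference was 2.51. Without the second DSE testis library 387 members were higher.

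In the epididymis, 70 members were higher (background 9.65%) and 84 lower (background 4.4%), or 51 and 96 with libraries rescaled by size factors, which moved the median of all transcripts by -0.23. In the vesicular gland the counts were 46 higher (2.49%) and 123 lower (13.4%). In the prostate gland they were 13 higher (2.61%) and 109 lower (6.57%), and in the bulbourethral gland 27 higher (6.37%) and 124 lower (6.48%), where the value in parentheses is the share of all transcripts called that way. The share of members called higher was thus 10.1% for the epididymis, 6.64% for the vesicular, 1.88% for the prostate and 3.90% for the bulbourethral gland among those tested. Over the whole table the shares higher were 2.78%, 1.83%, 0.516% and 1.07% of members, against 4.66%, 1.21%, 1.26% and 3.08% of all transcripts. The shares lower were 3.33%, 4.88%, 4.33% and 4.92% of members, against 2.13%, 6.48%, 3.18% and 3.13% of all transcripts. With a pseudocount of 0.1 the members higher numbered 130, 73, 35 and 36 in this order (18.8%, 10.5%, 5.05% and 5.19%, against 15.6%, 4.33%, 5.32% and 10.8% of all transcripts). Those lower then numbered 251, 381, 360 and 379 (36.2%, 55.0%, 51.9% and 54.7%, against 12.1%, 31.1%, 17.4% and 17.3%), and with size factors 16 were higher in the bulbourethral gland. At the pseudocount of 0.1 the median log2 difference of the members was -0.72, -1.16, -1.17 and -1.21 in this order, against 0.18, -0.82, -0.34 and -0.06 over all transcripts. With the pseudocount of 1 it was -0.31, -0.51, -0.50 and -0.49, against 0.08, -0.40, -0.21 and -0.08 over all transcripts. With the testis libraries left out, which also reduced the members tested to 307, each gland was set against the mean of the other 3. In the same order, 19, 26, 23 and 33 members were then lower (6.19%, 8.47%, 7.49% and 10.7%), against 2.78%, 11.5%, 2.21% and 3.18% of all transcripts. Members higher numbered 73, 41, 12 and 22 (23.8%, 13.4%, 3.91% and 7.17%), against 12.8%, 2.63%, 2.11% and 6.64% of all transcripts. All 6 libraries of the gland lay above the other 24 for 23 members in epididymis (1.5% of all transcripts), 10 in bulbourethral gland (1%), 5 in vesicular gland (0.246%) and 1 in prostate gland (0.113%).

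**Figure D3:**
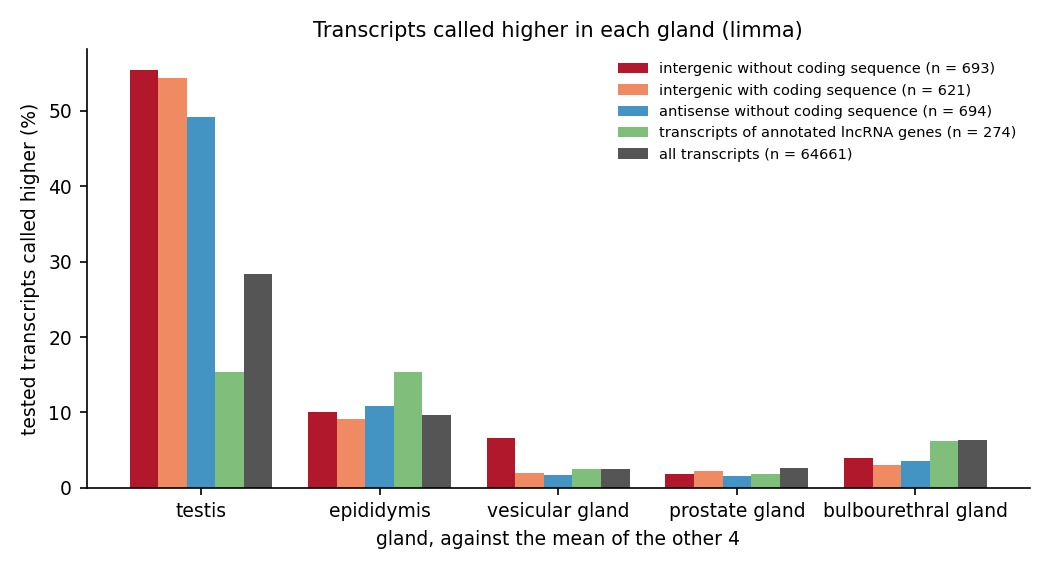
Share of tested transcripts (%) called higher in each gland against the mean of the other 4, for members, 3 related classes and all transcripts, with the number tested in the key. In testis the bars are 55.4% for members and 28.4% for all transcripts; in the vesicular gland they are 6.64% and 2.49%.

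The 4 testis members with the largest differences, among those with no overlap, lay at 4 separate loci. PB.7137.1 (chr15:38085442-38091863, plus strand), with the intron chain of the RefSeq lncRNA LOC102158366, had a lowest, median and highest testis TPM of 203, 989 and 1371, and at most 12.5 TPM elsewhere. Its log2 difference was 9.37 ± 0.32 (SE, limma, Benjamini-Hochberg adjusted p = 3.83e-18). All 6 testis libraries stood above the other 24, of which 5 epididymis libraries were the only ones above 0. PB.10464.1 (chr2:60982833-60984007, minus strand), divergent from the Mediator subunit gene MED26, had 314, 888 and 1279 TPM and at most 13.8 elsewhere. Its difference was 9.02 ± 0.38 (limma, adjusted p = 1.97e-16), again with no overlap. PB.20556.1, on an unplaced scaffold and with a noncanonical junction, had 433, 783 and 1323 TPM in testis and 0.991 to 7.05 TPM in each of the other 24 libraries. It differed by 7.78 ± 0.22 (limma, adjusted p = 1.16e-19). PB.8977.1 (chr17:41484164-41485045, plus strand) had 64.6, 294 and 385 TPM and at most 3.01 elsewhere, a difference of 7.76 ± 0.28 (limma, adjusted p = 8.23e-18). In all 4, the lowest testis value was that of the second DSE library.

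PB.8863.1 (chr17:35167886-35173777, minus strand) had the highest mean TPM of the members. Its 374 bases matched the intron chain of the RefSeq lncRNA LOC100621695 and overlapped an exon of the Ensembl gene ENSSSCG00000007219 on the same strand. Its testis TPM was 243, 250 and 279 in BMI and 237, 496 and 338 in DSE, and its epididymal TPM was 0, 62.9 and 3.46 in BMI and 12569, 0 and 0 in DSE. The testis libraries lay close together, and the first DSE epididymis library stood above all of them, with the vesicular, prostate and bulbourethral libraries at 0. Its 23 full-length reads were 22 in DSE and 1 in BMI epididymis, with none in testis. The testis difference was 7.31 ± 1.13 (limma, Benjamini-Hochberg adjusted p = 4.54e-06), and the epididymal difference of 1.57 ± 1.13 did not pass (adjusted p = 0.284). The 7 testis markers summed to 250 TPM in that epididymis library and to 1009 TPM in the second BMI one, and the part of testis RNA in the level of PB.8863.1 was not tested.

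Epididymal members varied widely between libraries of the gland. PB.6346.3, the transcript beside EGR2, had a lowest, median and highest TPM of 3.48, 17.1 and 29.1 in the epididymis and at most 0.117 elsewhere, a log2 difference of 3.81 ± 0.25 (limma, Benjamini-Hochberg adjusted p = 3.06e-11). PB.8523.2 (chr16:65432708-65438210, plus strand) had 3.38, 19.7 and 90.5 TPM and at most 0.102 elsewhere, a difference of 4.31 ± 0.31 (limma, adjusted p = 1.45e-10). Neither overlapped any other gland, and PB.8523.2 had been defined by 2 full-length reads, both in DSE epididymis. PB.18779.1 (chr8:55522369-55525914, minus strand) had 0.493, 13.1 and 41.6 TPM, with at most 0.189 elsewhere (difference 3.34 ± 0.38, limma, adjusted p = 2.94e-07). Its 3′ flank was 80% A, with no polyadenylation motif found. PB.16407.1 (chr6:86033472-86042190, plus strand), 124 bases from TMEM200B in divergent orientation, had 3.28, 5.53 and 302 TPM and at most 2.60 elsewhere (difference 3.17 ± 0.46, limma, adjusted p = 9.33e-06). Its highest value was again in the first DSE epididymis library, and without any 1 library its difference ranged from 2.27 to 3.77. Smooth muscle markers were highest in the second DSE and first BMI epididymis libraries, at 13343 and 6728 TPM. PB.6346.3 and PB.18779.1 had their 2 lowest epididymal values in these libraries, while PB.8523.2 and PB.16407.1 did not. The part of smooth muscle in these levels was not tested.

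The vesicular gland members were also found in the second BMI prostate library. PB.21009.12 (chrX:9479408-9533015, plus strand), whose span crosses that of the phosphoribosyl pyrophosphate synthetase gene PRPS2, with 5 of its 6 junctions noncanonical and template switching predicted, had a lowest, median and highest vesicular gland TPM of 88.9, 108 and 136. The second BMI prostate library had 71.7 TPM and the other 5 prostate libraries 1.57 to 3.88 TPM. Its log2 difference was 3.66 ± 0.43 (limma, Benjamini-Hochberg adjusted p = 4.24e-07). PB.21009.14, with the same ends and also predicted to be a product of template switching, had 3.99, 7.79 and 11.3 TPM in the vesicular gland and 3.92 in that prostate library (difference 2.49 ± 0.27, limma, adjusted p = 1.54e-07). The other isoforms of this locus summed to a mean of 2631 TPM beside PB.21009.12. PB.7549.1 (chr15:85465807-85472721, plus strand), a 5728-base isoform 58520 bases from the nearest Ensembl gene and on an exon of the RefSeq gene ZNF385B of the opposite strand, had 6.12, 8.72 and 14.7 TPM (difference 2.93 ± 0.21, limma, adjusted p = 3.4e-10). It had 6.04 TPM in the second BMI prostate library and 0.483 to 1.04 TPM in the other prostate libraries, and 36 of its full-length reads were in BMI vesicular gland and 27 in BMI prostate. PB.13645.70 (chr4:97287225-97319432, minus strand), with the intron chain of the RefSeq lncRNA LOC110260323, had 2.34, 4.34 and 4.99 TPM (difference 1.89 ± 0.20, limma, adjusted p = 7.6e-08). The other isoforms of its locus summed to a mean of 824 TPM. Without that prostate library 46 members were higher in the vesicular gland and 14 in the prostate gland.

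PB.11439.19 (chr2:149523766-149528965, plus strand) was found in both the vesicular gland and the epididymis. It had the intron chain of the RefSeq protein-coding gene LOC110259535, although no coding sequence was predicted in the isoform. Its TPM in the vesicular gland was 1061, 870 and 826 in BMI and 106.8, 650 and 6.20 in DSE, and in the epididymis 838, 107.4 and 1724 in BMI and 1.20, 235 and 0 in DSE. The second BMI prostate library had 633 TPM, the other 5 prostate libraries at most 0.254 TPM, and testis and bulbourethral gland 0. All vesicular gland values lay within the range of the epididymis. The vesicular gland differed from the mean of the others by 6.16 ± 1.06 and the epididymis by 3.62 ± 1.06 (limma, Benjamini-Hochberg adjusted p = 5.21e-05 and 0.00864). In the epididymis libraries the 3 vesicular gland markers summed to 5377, 25.2 and 2.68 TPM in BMI and 8.30, 1068 and 174 TPM in DSE, and their part in the epididymal level was not tested.

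PB.3611.50 (chr12:24937557-24944607, minus strand) was the only prostate member with no overlap. It lay 703 bases from the Ensembl gene ENSSSCG00000041971 in divergent orientation, and all 47 of its full-length reads were in DSE prostate. Its prostate TPM was 18.8, 6.55 and 18.8 in BMI and 20.5, 4.34 and 17.7 in DSE, and at most 0.0211 elsewhere. Both breeds thus held it at overlapping levels in short reads, although the BMI Iso-seq library had no read. The log2 difference of the prostate from the other glands was 3.76 ± 0.20 (limma, Benjamini-Hochberg adjusted p = 1.49e-12). The other isoforms of the locus of PB.3611.50 summed to a mean of 288 TPM.

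The bulbourethral members included 2 isoforms of 1 locus beside SIM2, a developmental transcription factor gene. PB.5573.6 (chr13:200351244-200354840, minus strand) had a lowest, median and highest TPM of 15.3, 19.8 and 23.7 in the bulbourethral gland and at most 0.0146 elsewhere, a log2 difference of 4.35 ± 0.09 (limma, Benjamini-Hochberg adjusted p = 1.5e-20). PB.5573.2 (chr13:200345546-200354840, minus strand) began at the same base, ended in a genomic run of 20 A, and had 6.91, 9.29 and 20.7 TPM (difference 3.48 ± 0.11, limma, adjusted p = 3.91e-17). Neither overlapped another gland, and each had 1 full-length read in each breed. PB.12621.163 (chr3:112005075-112006566, minus strand), 62 bases from ENSSSCG00000008555 in divergent orientation, had 56.9, 82.3 and 145 TPM and at most 9.17 elsewhere (difference 5.18 ± 0.23, limma, adjusted p = 1.58e-14). The other isoforms of its locus summed to a mean of 344 TPM. PB.17870.1 (chr7:62487397-62504719, minus strand), on an exon of the RefSeq lncRNA LOC106504447, had 6.10, 13.5 and 28.9 TPM and at most 0.388 elsewhere (difference 3.77 ± 0.18, limma, adjusted p = 8.36e-14). Its 3′ flank was 70% A, with the motif TTTAAA before it.

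**Figure D4:**
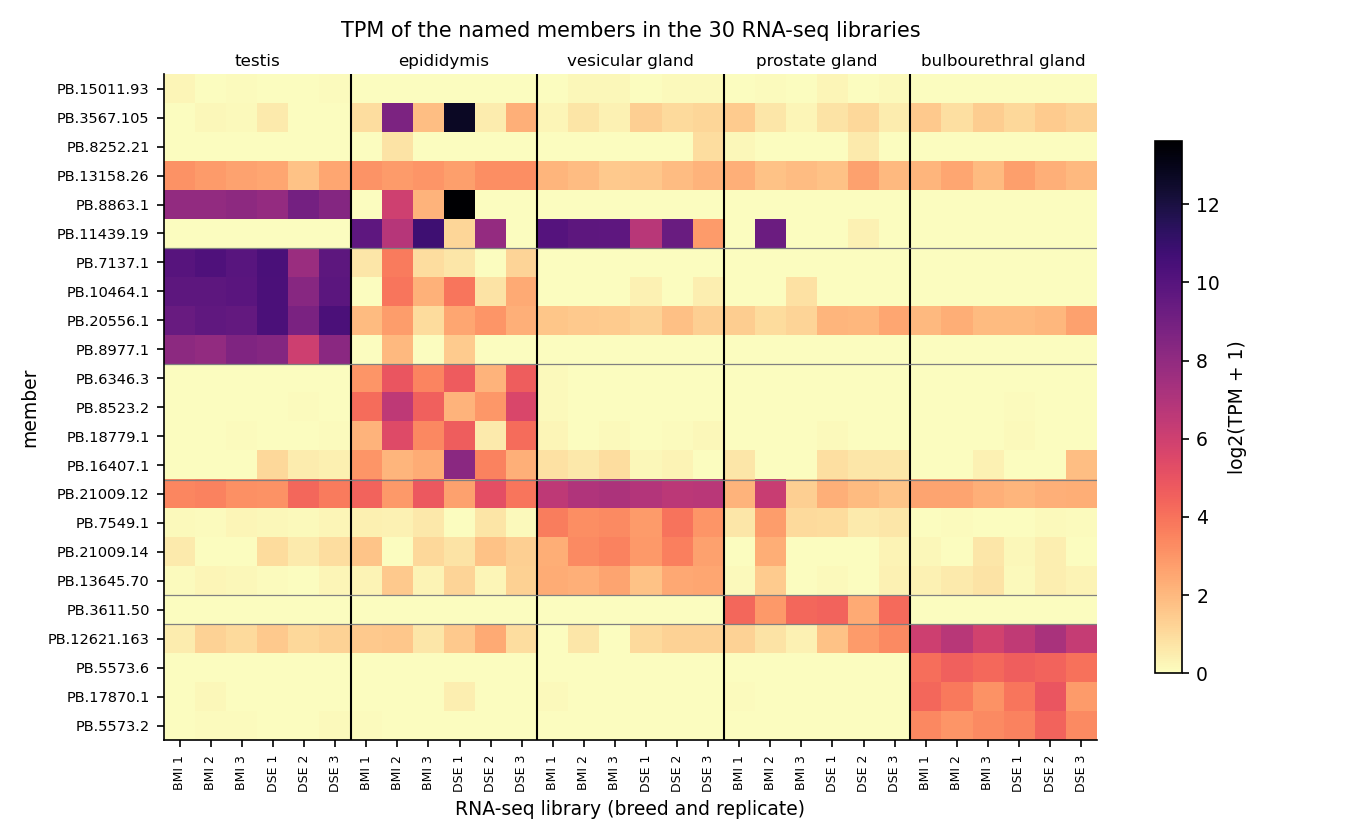
Heat map of log2(TPM + 1) for the members named for reads, mean level or gland, in 30 RNA-seq libraries ordered by gland and breed, with horizontal lines between the groups of members. Testis members are dark in 6 libraries, while PB.8863.1 and PB.3567.105 are darkest in the first DSE epididymis library and the vesicular gland members are also seen in the second BMI prostate library.

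Members that began beside an oppositely read gene varied with it across the libraries in most cases. A value could be had for 589 of the 693 members that passed the filter, since the nearest gene had no varying TPM for 100 and none was found for 4. Pearson's r of log2(TPM + 1) with the nearest Ensembl gene had a median of 0.706 for 152 divergent members within 5 kb, with 99 above 0.5. The median was 0.417 for 42 members on the same strand within 5 kb, 0.508 for 29 convergent members, 0.355 for 122 overlapping members and 0.235 for 244 members farther away. These values describe 30 libraries that share 5 glands and, for overlapping genes, reads that cannot be told apart. Among the named members, r was 0.92 for PB.6346.3 with EGR2 and for PB.10464.1 with MED26, 0.98 for PB.5573.6 with SIM2, 0.58 for PB.13158.26 with OTUD6B, -0.43 for PB.8977.1 with the Ensembl gene 4610 bases away and 0.01 for PB.1711.1 with the Ensembl gene 44 bases away.

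**Figure D5:**
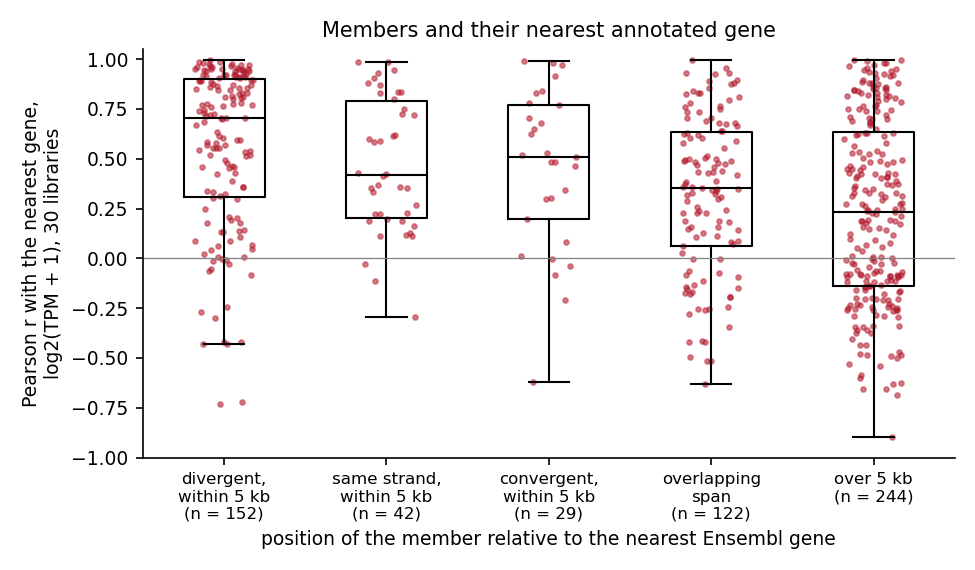
Pearson's r over 30 libraries between 589 members that passed the filter and their nearest Ensembl gene, by relative position, with boxes for the median and quartiles, whiskers to the last point within 1.5 interquartile ranges, and 1 point per member. The median is 0.706 for divergent members within 5 kb and 0.235 for members more than 5 kb away, and every class holds points near 0.

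Few members were called between the breeds, most of them in testis. DSE was compared with BMI in the 6 libraries of each gland by limma, with the same thresholds. In testis, 3 of 472 members tested were higher in DSE (background 0.223%) and 8 were lower (background 0.474%). At an unadjusted p below 0.05, 16 were higher in testis (3.39%, against 3.48% of all transcripts) and 92 lower (19.5%, against 8.43%). The share lower at that p was 21.99% of intergenic isoforms with a coding sequence and 20.48% of antisense isoforms without one. It was 10.2% of transcripts of annotated lncRNA genes. The testis markers INSL3 and DDX4 did not overlap between the breeds in testis, and their part in the testis counts was not tested. In the prostate gland 0 of 115 were higher (background 0.315%) and 1 was lower (background 0.105%). At an unadjusted p below 0.05, 24 were higher there (20.9%, against 16.9% of all transcripts) and 3 lower (2.61%, against 2.03%). In the same gland the bulbourethral marker AGR2 was at 740 to 2184 TPM in DSE and 41.8 to 231 TPM in BMI, while TFF3 overlapped. Its part in these counts was not tested. No member of 205 in the epididymis, 132 in the vesicular gland or 120 in the bulbourethral gland was called by limma in either direction, where 0%, 0.0771% and 0.0546% of all transcripts were higher and 0%, 0.114% and 0.0481% lower. At an unadjusted p below 0.05, 1, 7 and 3 members were higher in DSE in these glands (0.488%, 5.30% and 2.5%, against 1.52%, 1.68% and 2.70% of all transcripts). Those lower numbered 9, 18 and 17 (4.39%, 13.6% and 14.2%, against 1.53%, 10.4% and 3.52%). The testis counts fell to 0 in both directions without any 1 BMI testis library. None was higher by limma without the first or the third DSE library, and 3 were lower without the third. In 1 fit of all 30 libraries the testis counts were 15 higher (2.16%, background 1.09%) and 88 lower (12.7%, background 3.88%), and the share lower was 13.8% of intergenic isoforms with a coding sequence and 12.8% of antisense isoforms without one.

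PB.13366.2 (chr4:79322940-79328431, minus strand), of 7 exons and with 6 reads, all in DSE testis, was listed at 0 TPM in the 3 BMI testis libraries and at 30.5, 5.84 and 17.8 TPM in the DSE ones. The breeds did not overlap (limma, Benjamini-Hochberg adjusted p = 0.0304). PB.20575.1, on an unplaced scaffold, was listed at 0 in the BMI libraries and at 6.47, 6.24 and 9.57 TPM in DSE (limma, adjusted p = 0.00968). PB.3741.131 (chr12:45231751-45239617, plus strand), an isoform with 4 noncanonical junctions defined by 2 reads, was the reverse, with 22.1, 29.5 and 48.7 TPM in BMI and 1.47, 0.699 and 2.13 TPM in DSE, a log2 difference of -3.79 ± 0.40 (limma, adjusted p = 0.0117). The other isoforms of its locus summed to a mean of 111 TPM, so its TPM also depends on how reads were divided. PB.1711.1 (chr1:218672974-218676647, minus strand) had 11.6, 8.79 and 8.80 TPM in BMI and 0.219, 0 and 0.185 TPM in DSE, a difference of -3.24 ± 0.30 (limma, adjusted p = 0.00802). Its 5 full-length reads were all in BMI testis, and its 3′ flank was 100% A with no polyadenylation motif found. The calls of PB.3741.131, PB.13366.2 and PB.20575.1 were lost without any 1 BMI testis library, with limma adjusted p up to 0.185, 0.295 and 0.201. In these fits of 2 against 3 libraries the differences of PB.13366.2 and PB.20575.1 were 3.99 and 3.05, as with all 6, and over all fits without 1 library that of PB.3741.131 ranged from -4.05 to -3.49. PB.1711.1 passed without any 1 DSE library (limma, adjusted p up to 0.0494), and members found in 1 breed only were below the filter without a library of that breed.

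PB.2903.76 (chr11:7053689-7059940, minus strand) lay in an intron of KATNAL1, a katanin-like gene of microtubule severing, by Ensembl and on a KATNAL1 exon by RefSeq. Its prostate TPM was 2.10, 2.57 and 3.69 in BMI and 0 in each DSE library (limma, Benjamini-Hochberg adjusted p = 0.0496). In BMI it was at 2.82, 4.79 and 5.57 TPM in the epididymis, 1.43, 2.71 and 1.26 in the vesicular gland and up to 4.22 in the bulbourethral gland, and in DSE at most 0.0657 TPM in these glands. The breeds did not overlap in any of these 4 glands, and all 16 of its full-length reads were in BMI. The differences outside the prostate did not pass (limma, adjusted p = 0.338, 0.155 and 0.147). The prostate call was lost without any 1 DSE library, with limma adjusted p up to 0.522 and the same log2 difference, since DSE was at 0, and without a BMI library the member was below the filter.

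Whether the breed difference itself varied between glands was tested by limma over all 30 libraries, with 1 spread shared by all groups as in the gland fits. The interaction term passed for 66 of the 693 members tested (9.52%, against 2.62% of all transcripts), and for 33 members with a pseudocount of 0.1 (4.76%, against 1.19%). The share was 9.66% of intergenic isoforms with a coding sequence and 9.51% of antisense isoforms without one. The largest breed difference lay in testis for 58 of the 66, and the highest mean TPM also lay in testis for 58. The filter could be met through testis alone, and for a member near 0 elsewhere a breed difference in testis is itself an interaction. The share among those tested therefore depends on the filter. The DSE testis mean was lower than the BMI mean for 52 of the 66 and higher for 12. The testis markers INSL3 and DDX4 did not overlap between the breeds in testis either, and their part in these results was not tested. PB.1711.1 had the smallest adjusted p (1.38e-12, limma with Benjamini-Hochberg). PB.13876.2 (chr4:116931529-116937022, plus strand), with 3.35, 3.09 and 4.17 TPM in BMI testis and 0, 0.0997 and 0 in DSE testis and 0 elsewhere, followed with 1.24e-10, and PB.20575.1 with 2.01e-09. The 11 full-length reads of PB.13876.2 were all in BMI testis. The second DSE testis library, low for PRM1, was part of these fits. Without it 78 members passed the interaction test, against 106 without the third DSE testis library, and 3 members were called higher and 8 lower in DSE testis.

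The long and short reads named the same gland most often in testis. Of 476 members read only in testis and with a TPM above 0, 451 (94.7%) had their highest mean TPM in testis, as 29.6% of all members in the table did. The corresponding shares were 65.3% in epididymis (30.3% of all), 36.1% in bulbourethral gland (13.3%), 33.9% in vesicular gland (17.6%) and 11.5% in prostate gland (9.13%). For members read in both breeds of the gland they were 97.1%, 80.6%, 66.7%, 42.9% and 11.5%, the last over 26 members. The labels do not say whether both assays used tissue of the same boars.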

How the data were processed

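Iso-seq (10 libraries) and rRNA-depleted or poly-A-selected RNA-seq (30 libraries; the labels and the methods of the study differ on the selection) of 5 glands in 2 breeds were analysed. The authors made the full-length read counts with IsoSeq3, which requires a poly-A tail, mapped the clustered isoforms with GMAP to Sscrofa11.1, collapsed them with 5′ truncated isoforms removed, and classed them with SQANTI3 against Ensembl. The deposited percentage (%) of A in the 20 genome bases after each 3′ end comes from SQANTI3. The TPM values were made by the authors with Salmon 1.9.0 on a merged annotation of Ensembl and Iso-seq isoforms, so that reads of overlapping isoforms are divided by a model. The deposited TPM table holds no read counts, and the read totals that the study gives for those libraries were not used here. The deposited small RNA table and the authors' other outputs were not used.

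Members and gene lists were chosen with earlier results of these data known. Limma 3.58.1 in R 4.3.3 was fitted with a trend on log2(TPM + 1), without a replicate block, to all transcripts that reached 1 TPM in 3 or more libraries, for the gland contrasts and the breed by gland interaction over 30 libraries and for the breeds within the 6 libraries of a gland. Adjusted p-values are Benjamini-Hochberg over all transcripts tested. The lists of gland markers had transcripts for 7 of 7 testis, 5 of 8 epididymis, 3 of 5 vesicular, 4 of 5 prostate and 2 of 5 bulbourethral gland markers. The epididymis markers summed to 1647 to 5084 TPM in 5 epididymis libraries and 23262 TPM in the second BMI one, and the prostate markers to 104148 to 179516 TPM in 5 prostate libraries and 88950 TPM in the second BMI one; the bulbourethral markers AGR2 and TFF3 summed to 16713 to 35706 TPM in the bulbourethral gland and at most 2195 TPM elsewhere. Named members were the 5 with the most reads, the 3 with the highest mean TPM, up to 4 per gland with the largest difference among those called higher with no overlap, up to 2 per gland and direction between breeds (and all in a gland with at most 5 called in both directions together), and the 3 with the smallest adjusted p of the interaction. Reference sequence and RefSeq genes were read for the assembled chromosomes of Sscrofa11.1, and repeats from its lower case. Sums over libraries replaced the deposited read total, which differed for 8 members. The fits were tested on simulated data, with equal means in unchanged groups and the spread of each transcript pooled over all glands and breeds. Between the breeds, a log2 change of 2 was recovered for 0% and one of 4 for 89.5% of 200 changed transcripts in testis. These shares hold for that pooled spread and not for the testis libraries themselves, in which a member was called at a log2 difference of -1.95. Alternatives were a size-factor scaling, other pseudocounts and filters, no trend, a replicate block, 1 fit of all glands and leaving out each library. Python 3.11.15 with pandas 2.3.3 and scipy 1.17.1 and blastn 2.17.0 were used for the rest. The start sequence of 1 named locus is not reported here.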

Additional observations from a re-analysis of the deposited data

Results flagged for a closer look

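In 28 tests for a single distant library in a group of 6, 8 passed. Chance gives about 1 in 20 for independent tests, but 4 of the 8 are the same library, and some members were named for values that it carries. Summed member TPM was lowest in the second DSE testis library at 4537, and highest in the first DSE epididymis library at 23060 and in the second BMI prostate library at 1692. That epididymis library was also far above the others for PB.8863.1 at 12569 TPM, PB.3567.105 at 6494 TPM and PB.16407.1 at 302 TPM. PB.8252.21 had 0.912 TPM in the third DSE vesicular gland library and 0 in the other 5 of that gland, and PB.5573.2 had 20.7 TPM in the second DSE bulbourethral library.

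The breed difference varied between glands for 66 members tested by the limma interaction term, after a filter that testis alone could meet. The named ones were PB.1711.1 (limma, adjusted p = 1.38e-12), PB.13876.2 (limma, adjusted p = 1.24e-10) and PB.20575.1 (limma, adjusted p = 2.01e-09). PB.1711.1 and PB.13876.2 were higher in all 3 BMI testis libraries than in any DSE one, and PB.20575.1 was higher in all 3 DSE testis libraries than in any BMI one.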

How the results depend on the processing

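Of 777 alternatives for named members, 757 kept direction and side of the threshold, among them all for gland differences and all 99 for interactions, while 20 of 53 for breed differences no longer passed. Counts were compared within 1.5 times, and other values within their interval or SD; those beyond follow. In 1 fit of all glands, members higher and lower in DSE were 15 and 88 in testis (2.16% and 12.7%, against 1.09% and 3.88% of all transcripts), 1 and 6 in epididymis (0.144% and 0.866%, against 0.363% and 0.350%), 2 and 3 in vesicular gland (0.289% and 0.433%, against 0.102% and 0.230%), 1 and 2 in bulbourethral gland (0.144% and 0.289%, against 0.210% and 0.224%), with 4 higher in prostate (0.577%, against 0.333%). The 1 prostate call became 0 with a pseudocount of 0.1, no filter, a filter of 0.1 TPM or a replicate block. Testis calls between breeds became 1 higher and 2 lower with no filter, 3 lower with the pseudocount of 0.1, and 0 higher and 1 lower with the replicate block, which moved no gland count by over 1.5 times. Same-numbered libraries of the breeds had correlations of their deviations from -0.365 to 0.214, above 0.1 in 3 of 15 pairs, and those of the glands within a breed in 18 of 60. All 3 DSE pairs were above 0.1 between epididymis and vesicular gland (0.209 to 0.441) and between testis and vesicular gland (0.105 to 0.296), and no other pair of glands or breeds had all 3 above it. Leaving out 1 library gave 0 to 3 higher and 0 to 8 lower in testis, 0 lower in prostate, and 45 to 106 for the interaction, with 106 without the third DSE testis library. The pseudocount of 0.1 gave 33 for the interaction (4.76%, against 1.19% of all transcripts) and no filter gave 101.

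Between glands, the pseudocount of 0.1 gave 138 lower in testis (19.9%, against 19.9% of all transcripts), 130 higher and 251 lower in epididymis (18.8% and 36.2%, against 15.6% and 12.1%), 73 and 381 in vesicular gland (10.5% and 55.0%, against 4.33% and 31.1%), 35 and 360 in prostate gland (5.05% and 51.9%, against 5.32% and 17.4%), and 379 lower in bulbourethral gland (54.7%, against 17.3%). With the testis left out, a choice made after the data were seen, 19 were lower in epididymis, 33 in bulbourethral, 26 in vesicular and 23 in prostate gland. Size factors gave 16 higher in bulbourethral gland and summed TPM of 2769 in vesicular and 1143 in bulbourethral gland. With at least 2 reads, 96 members were found in BMI bulbourethral gland and 405 in DSE epididymis. Their read shares were 0.0579% and 0.227% over members with at least 5 reads, and 0.0646% and 0.302% without template switching or noncanonical junctions. Among members with at least 5 reads, 75.3% were canonical, 16.2% had predicted switching, 63.5% a motif and 47.3% an A-rich flank, and 54.2% were canonical with 1 member per locus, chosen after the data were seen. The cause of these changes was not tested.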
